A study of Mus musculus with 17 samples.

Results

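Bone marrow-derived macrophages, grown from the marrow of mice, were compared after exposure to tumour-conditioned medium with added potassium chloride at preserved osmolarity and after conditioned medium alone. The members were chosen by their labels: 6 of the 17 libraries of the series, 3 in each group. The isotonic KCl libraries came from Kcnj2f/f cells, which carry floxed alleles of the potassium channel gene Kcnj2 with no Cre named, given B16F10 conditioned medium plus KCl labelled isotonic. The reference libraries came from C57BL/6J cells given B16F10 conditioned medium with no added salt. All 6 thus share the conditioned medium, in which B16F10, a mouse melanoma line, had grown. Per the labels, treatment lasted 6 hours and the added KCl reached 40 mM. The labels state neither how the medium was kept isotonic nor the batch, age or sex of the mice, and the treatment text names C57B6J as the source of all cells. Strain and treatment, and any batch that goes with them, cannot be told apart in any result below. The labels do not tie libraries to separate animals or cultures, so the spread behind each p-value is that between these libraries and may be technical.

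Cells keep potassium high inside and low outside, and a rise outside depolarizes them. Kir2.1, the inward rectifier encoded by Kcnj2, helps to set that resting potential. A salt added on top of normal medium also raises osmolarity, to which cells respond by taking up or making small organic osmolytes under the transcription factor NFAT5, while an isotonic medium leaves that load out. Shortage of amino acids, stress of the endoplasmic reticulum and other insults converge on the integrated stress response, in which general translation falls and the transcription factor ATF4 turns on genes for amino acid supply and for feedback.

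Total counts were 15458703 to 16460805 per library in conditioned medium and 15618236 to 16994998 with isotonic KCl. The isotonic libraries were not alike. Over all genes, the chi-square per degree of freedom between libraries was 132.6 for isotonic 1 and 2, 56.0 for 1 and 3 and 25.3 for 2 and 3, against 2.59 to 5.40 between the conditioned medium libraries. The length slope, the change in log2 level per doubling of transcript length, was 0.27 in isotonic library 1, −0.03 in library 2 and 0.05 in library 3, and 0.16 to 0.23 in conditioned medium. On the first principal component of the 6 libraries, isotonic library 1 (−19.3) lay among the conditioned medium libraries (−29.3 to −18.2), and isotonic libraries 2 and 3 lay at 60.2 and 29.2. On the second component (17.1% of variance) isotonic library 1 lay farthest from conditioned medium, at −33.2 against 8.59 to 14.3, with isotonic libraries 2 and 3 at 7.93 and −10.7. The median gene had a coefficient of variation of 21.2% across isotonic libraries and 7.44% across conditioned medium libraries. The part of this spread in the results was not tested.

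**Figure D1:**
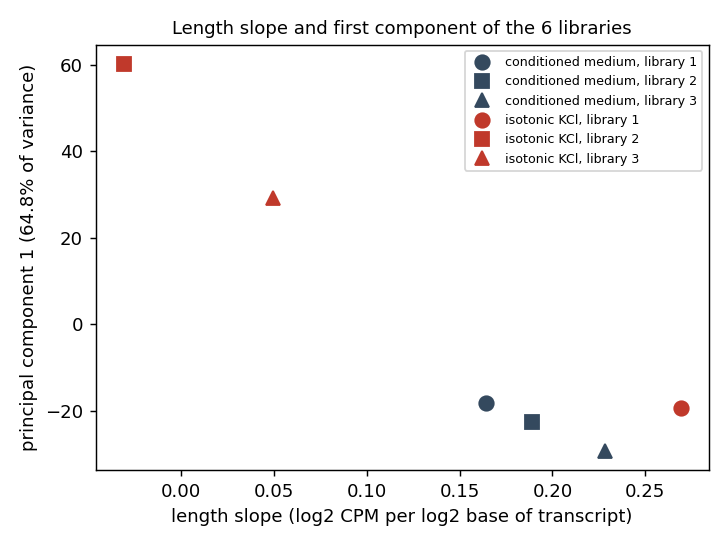
Length slope of each library (x axis, change in log2 CPM per doubling of transcript length) against its position on the first principal component (y axis, share of variance in the label) for the 3 conditioned medium and 3 isotonic KCl libraries. Isotonic library 1, at a slope of 0.27, sits with the conditioned medium libraries at the lower right, although it lies apart from them on the second component, which is not drawn, and isotonic libraries 2 and 3 lie apart at lower slopes.

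The cells carried the marks of macrophages in both groups. The 15 macrophage identity markers summed to 28187 to 31961 CPM with isotonic KCl and 28770 to 30716 CPM in conditioned medium (CPM are counts relative to the library size, scaled by TMM over all 17 libraries). Within this list Fcgr1, a high-affinity antibody receptor, was lower with isotonic KCl and no member was higher. Neutrophil markers summed to 119 to 173 CPM against 165 to 179 CPM. Stromal and endothelial markers summed to 423 to 713 CPM against 743 to 809 CPM. Dendritic cell markers summed to 36.5 to 42.6 CPM against 59.8 to 65.6 CPM. Most of that last sum was 1 marker, at 22.1 to 33.4 CPM against 53.5 to 57.5 CPM, which was lower. Of the 5 dendritic cell markers tested, 2 lay above and 1 below every conditioned medium library, against 14.8% and 15.9% of all genes. Their median log2 fold change was 0.43. The T and NK cell markers summed to 5.75 to 12.7 CPM against 7.28 to 10.9 CPM and the B cell markers to 57.2 to 85.5 CPM against 54.0 to 66.3 CPM. The melanoma markers summed to 2682 to 6394 CPM against 4277 to 4473 CPM, of which Gpnmb, a glycoprotein that macrophages also make, gave 2541 to 6186 CPM against 4098 to 4294 CPM. Among the defining markers, the T cell genes Cd3e and Cd3g, the B cell gene Pax5, the neutrophil gene Elane and the melanocyte genes Tyr and Dct had 0 counts in all 6 libraries. The part of these other cells in the results was not tested. In bulk RNA, fewer cells of a type and less RNA per cell cannot be told apart. Among the sex-linked genes, Xist was detected in all 6 libraries, Tsix was too low to test, and the 4 Y-linked genes Ddx3y, Uty, Kdm5d and Eif2s3y had 0 counts in all 6. Of 6 tested genes known to differ between mouse strains, Casp4 passed the edgeR threshold, and Nlrp1b, Ide, Nnt, Wdfy1 and Cyfip2 had adjusted p of 0.077 to 0.78. For 5 of the 6 the groups did not overlap. Of these, 3 lay above and 2 below every conditioned medium library, against 14.8% and 15.9% of all genes. An unadjusted p under 0.05 in edgeR was found for 4 of the 6. Nlrp1b had the largest of these differences, at 0.151 to 0.401 CPM against 0.747 to 1.461 CPM (log2 fold change −1.89). That fold change lies near the floor, since 3 counts make 0.227 CPM in isotonic library 2, where Nlrp1b was at 0.151 CPM. Nnt was low too, at 0.832 to 1.336 CPM against 0.365 to 0.747 CPM. Nlrp12, Entpd4, Entpd4b, Gm10409, Crb1 and Naip1 were too low to test. None of 11 tested genes next to Kcnj2 passed in edgeR (1 at an unadjusted p under 0.05) or DESeq2.

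Isotonic KCl was set against conditioned medium to see what added potassium does where osmolarity is held. Of 12966 genes tested, 411 (3.17%) had an adjusted p under 0.05 in edgeR's quasi-likelihood test with Benjamini-Hochberg adjustment. Of these, 254 (1.96%) were higher and 157 (1.21%) lower with isotonic KCl, and 158 changed at least 2-fold. All isotonic libraries lay above all conditioned medium libraries for 14.8% of genes tested and below them for 15.9%. The count of 411 depended on which library was left out: it was 0 without any 1 of the 3 conditioned medium libraries or without isotonic library 3, where 1745 to 1993 genes still had an unadjusted p under 0.05 in edgeR, 410 without isotonic library 2 and 5939 without isotonic library 1. In that last fit 23.2% of genes tested were higher and 21.6% lower. DESeq2 on all 6 libraries called 7.13% higher and 5.09% lower. Scaling by total counts alone put the median of all genes at −0.18 and moved the split of calls from 61.8% to 33.9% higher, with 0.887% of genes higher and 1.73% lower. Of the 92 called genes named from this comparison here and in the closing section, all lost their call without any 1 conditioned medium library or isotonic library 3, 69 kept it with scaling by total counts, and none changed direction under any alternative run. The 23 that lost it with that scaling were Asns, Atf3, Cars, Ccrl2, Cebpg, Clec4e, Fosl2, Gbp7, Gla, Ifih1, Ifit2, Igtp, Il1rn, Kcnj2, Mmp12, Mrc1, Rora, Slc6a12, Slc7a11, Sqstm1, Tapbp, Tlr4 and Usp18.

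Chac1 and Trib3, of the integrated stress response, gave the largest rises among called genes of at least 10 CPM without overlap, predicted genes left out. Chac1, an enzyme that degrades glutathione and a known ATF4 target, stood at 14.6, 11.6 and 15.1 CPM in isotonic libraries 1 to 3 and at 1.38, 2.01 and 1.90 CPM in conditioned medium. The groups did not overlap (log2 fold change 2.97, SE 0.21, adjusted p = 0.00421). Trib3, a pseudokinase that restrains ATF4, stood at 18.9, 33.4 and 25.3 CPM against 3.95, 3.47 and 3.68 CPM. Its lowest isotonic library was library 1, still above every conditioned medium library, with a log2 fold change of 2.81 (SE 0.24, adjusted p = 0.00599). Gdf15, a secreted stress hormone of the TGF-beta family, stood at 482, 808 and 739 CPM against 193, 195 and 176 CPM (log2 fold change 1.86, SE 0.20, adjusted p = 0.0107). Isotonic library 1 was again the lowest of its group.

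Of 22 tested genes of the ATF4 list, 8 were higher and 0 lower, against 1.96% and 1.21% of all genes, and 17 were above every conditioned medium library, against 14.8% of all genes. The median log2 fold change of the list was 0.63, beside 0.02 over all genes tested. Besides the 3 genes above, the 8 were Atf4 itself (1.41), Ddit3 (1.15), which encodes the stress factor CHOP, Phgdh (0.96), the entry enzyme of serine synthesis, Cebpg (0.63), a dimer partner of ATF4, and Asns (0.55), which makes asparagine. Atf4 mRNA stood at 495, 1058 and 784 CPM against 290 to 299 CPM. Asns stood at 128, 135 and 139 CPM against 89.7 to 96.0 CPM, so its groups did not overlap although its change was small, and its adjusted p was 0.11 with scaling by total counts. Without isotonic library 1 the count was 18 higher and 0 lower, against 23.2% and 21.6% of all genes in that fit, and with scaling by total counts it was 6 and 0. Ddit4, an inhibitor of mTOR signalling, was the only member with a fold change below 0 (−0.26, adjusted p = 0.36).

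ATF4 binds DNA with C/EBP partners at a composite element, searched here as TGATGNAA on both strands in the 250 bases before each start site (RefSeq promoters, GRCm38.p6). Of the 22 list genes 20 matched a promoter entry. The element was in 2 of the 8 members that rose and in 2 of 12 others, against 3.907% of all 27025 genes with a promoter entry (3.452% of all 32851 windows of the same length). The windows of the 2 risen genes that hold it are shown since they place the element, in capitals, relative to the start: 193 bases before it in Chac1 (chr2:119350992-119351241, plus strand, with the element on the opposite strand) and 23 bases before it in Asns (chr6:7693210-7693459, minus strand). Both are printed 5′ to 3′ in the direction of the gene. A match describes the letters only.
Chac1: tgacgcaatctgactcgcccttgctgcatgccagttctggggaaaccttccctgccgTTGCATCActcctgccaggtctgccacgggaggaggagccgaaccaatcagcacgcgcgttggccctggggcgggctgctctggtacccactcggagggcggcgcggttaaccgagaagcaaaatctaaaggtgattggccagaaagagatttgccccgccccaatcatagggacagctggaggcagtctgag
Asns: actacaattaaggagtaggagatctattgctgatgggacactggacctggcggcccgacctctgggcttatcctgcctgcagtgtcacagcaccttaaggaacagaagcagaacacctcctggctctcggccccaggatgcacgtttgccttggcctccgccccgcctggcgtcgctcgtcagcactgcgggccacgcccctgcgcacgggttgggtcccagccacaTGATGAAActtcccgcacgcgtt

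Amino acid handling outside that list was mixed. Arg2, the mitochondrial arginase, stood at 19.8, 22.6 and 22.2 CPM against 6.03 to 6.21 CPM, without overlap (log2 fold change 1.82, SE 0.13, adjusted p = 0.00421). Arg1, the cytosolic arginase and a marker of alternative activation, was too low to test, with 0 counts in each isotonic library. Slc7a11, the cystine importer and an NRF2 target, was higher (0.85), as was the cysteinyl-tRNA synthetase gene Cars (0.62). Each was the only called member of its list, of 19 NRF2 and 20 tRNA synthetase genes, against 1.96% of all genes higher. Glul, glutamine synthetase, stood at 117, 99.4 and 106 CPM against 177 to 187 CPM and was lower (−0.74, SE 0.10, adjusted p = 0.0212). With Idh2 (−0.76), a mitochondrial isocitrate dehydrogenase, it made up the 2 called of 35 tested genes of the TCA cycle and glutamine metabolism. Both were lower, against 1.21% of all genes.

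**Figure D2:**
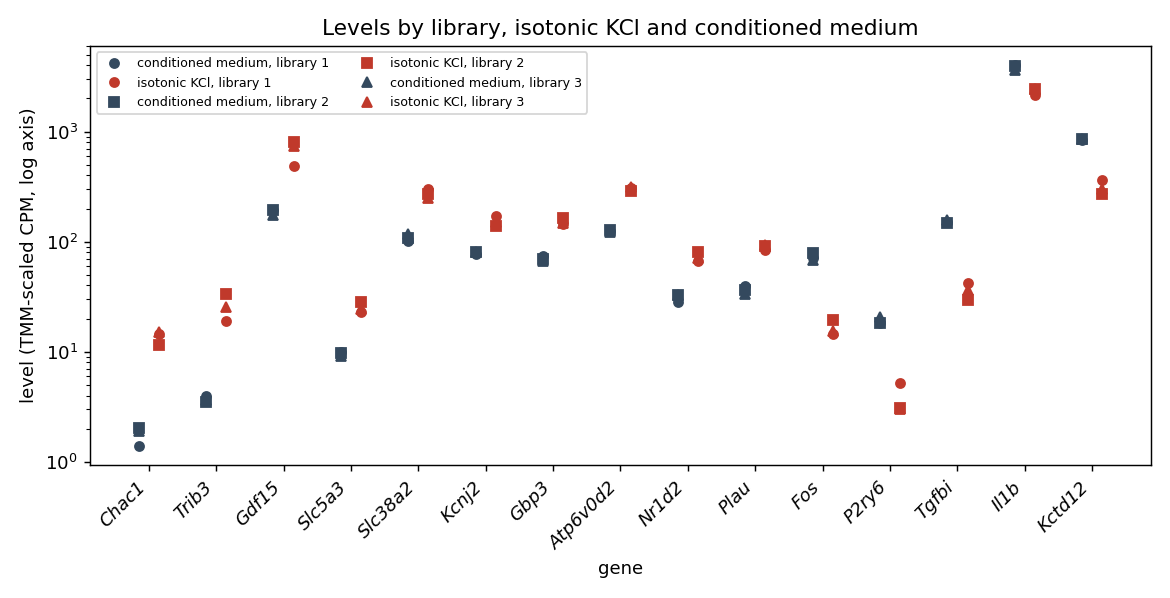
TMM-scaled CPM (y axis, log scale) of 15 genes (x axis) in each library, with marker shapes for library numbers, grey for conditioned medium and red for isotonic KCl. The groups do not overlap for any gene drawn; for Trib3 and Gdf15 isotonic library 1 is the lowest isotonic library.

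Among potassium and osmolyte genes, Kcnj2 stood at 172, 140 and 149 CPM with isotonic KCl and at 77.8, 80.0 and 80.4 CPM in conditioned medium (log2 fold change 0.96, SE 0.11, adjusted p = 0.0116). Every isotonic library was above every reference library, and the floxed allele itself differs between these groups. With scaling by total counts the fold change was 0.77 (adjusted p = 0.051 in edgeR). Of 13 tested genes of the potassium channel list, 2 were higher and 1 lower, against 1.96% and 1.21% of all genes. The median was −0.65, and 9 of the 13 had an unadjusted p under 0.05 in edgeR. Of the 13, 3 lay above and 5 below every conditioned medium library (14.8% and 15.9% of all genes). The other 2 called were Hvcn1 (0.85), a voltage-gated proton channel, and Kctd12 (−1.44), which is not a channel but an auxiliary subunit of GABA-B receptors. Summed over the list, the level was 1029 to 1135 CPM against 1415 to 1436 CPM. Of this Kctd12 gave 270 to 361 CPM against 831 to 866 CPM, and Hvcn1 379 to 429 CPM against 224 to 234 CPM. The lower sum thus rests largely on Kctd12, and the sum alone does not tell whether the channels fell. Of 19 genes of the pump and cotransporter list 1 was higher and 1 lower, against 1.96% and 1.21% of all genes. Atp1b3 (0.68), a beta subunit of the sodium potassium pump, was higher and Slc12a7 (−0.67), a potassium chloride cotransporter, lower. None of 29 tested genes of calcium entry and calcineurin passed the edgeR threshold, with 11 at an unadjusted p under 0.05, and DESeq2 called 2 higher and 3 lower, against its 7.13% and 5.09% of all genes.

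Slc5a3, the sodium-coupled importer of the osmolyte myo-inositol, stood at 22.8, 28.3 and 24.6 CPM against 9.85, 9.80 and 9.19 CPM (log2 fold change 1.40, SE 0.14, adjusted p = 0.00714). Slc38a2, an importer of neutral amino acids that responds to hypertonicity and to amino acid shortage, stood at 302, 272 and 251 CPM against 101 to 118 CPM (1.34, SE 0.12, adjusted p = 0.00599). Slc6a12, the betaine importer, stood at 39.3, 28.2 and 35.2 CPM against 16.7 to 17.6 CPM (1.00, SE 0.15, adjusted p = 0.0225), and its adjusted p was 0.074 with scaling by total counts. These 3 transporters were the members that rose among 19 tested genes of the NFAT5 and osmolyte list, against 1.96% of all genes. The inducible chaperone genes Hspa1b (−1.59) and Hspa1a (−1.64) were the 2 that fell, against 1.21% of all genes. They were also the only called members of the 19 heat shock genes. They are near-identical neighbours, so reads may be split between them. The median of the osmolyte list was 0.01. Of its genes 4 lay above and 6 below every conditioned medium library, against 14.8% and 15.9% of all genes. Akr1b3, which makes the osmolyte sorbitol, had a fold change of 0.07 (adjusted p = 0.77).

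Interferon-stimulated genes, the antiviral and antimicrobial set downstream of interferon receptors, were the list with the most calls of the 48. Of 33 tested, 11 were higher and 0 lower, against 1.96% and 1.21% of all genes, and 22 were above every conditioned medium library, against 14.8%. Their median log2 fold change was 0.50. Gbp3, a guanylate-binding protein, stood at 145, 162 and 148 CPM against 67.2 to 73.8 CPM (1.12, SE 0.10, adjusted p = 0.00676). Irgm1, an immunity-related GTPase, stood at 144, 121 and 131 CPM against 65.8 to 68.3 CPM (0.98), and Rsad2, the antiviral enzyme viperin, at 148, 138 and 134 CPM against 76.7 to 79.1 CPM (0.86). No library of either gene overlapped the other group. The other 8 were Ifi44 (1.10), Xaf1 (0.97), Gbp7 (0.91), Rtp4 (0.76), Ifit2 (0.69), Usp18 (0.68), Ifih1 (0.64) and Igtp (0.57). With scaling by total counts 6 were higher, without the calls of Gbp7, Ifih1, Ifit2, Igtp and Usp18. Without isotonic library 1 the list had 21 higher and 2 lower, against 23.2% and 21.6% of all genes in that fit.

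Inflammatory genes moved in both directions. Il1b, the precursor of interleukin-1 beta, stood at 2155, 2461 and 2461 CPM against 4031, 3920 and 3631 CPM, so that all isotonic libraries were below all reference libraries (log2 fold change −0.70, SE 0.11, adjusted p = 0.0279). Higher members of the 23 tested cytokines and enzymes were Edn1 (1.03), the vasoconstrictor endothelin-1, Ptgs2 (0.92), the inducible cyclooxygenase, and Il1rn (0.66), the interleukin-1 receptor antagonist. Il1b was the only member that fell. The list thus had 3 higher and 1 lower, against 1.96% and 1.21% of all genes, and its median was 0.51. With scaling by total counts the list had 2 higher, without Il1rn, and 2 lower. Tnf stood at 3383, 3958 and 3802 CPM against 2585 to 2657 CPM, without overlap, but did not pass the edgeR threshold (0.51, SE 0.11, adjusted p = 0.0560), while DESeq2 called it (adjusted p = 0.000451). Il6 stood at 134, 368 and 247 CPM against 88.4 to 107 CPM and did not pass in edgeR either (1.35, SE 0.34, adjusted p = 0.0796), while DESeq2 called it (adjusted p = 0.00252). Nos2, inducible nitric oxide synthase, overlapped between groups (0.65, adjusted p = 0.41).

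Of 17 genes of the chemokine list 2 were higher and 1 lower, against 1.96% and 1.21% of all genes. Ccrl2 (1.16), a chemokine-binding receptor without signalling of its own, and Cxcl2 (0.83), a neutrophil attractant, were higher. Cx3cl1 (−1.51), the membrane-bound ligand fractalkine, was lower. Ccl20, the ligand of CCR6 and not in that list, stood at 17.2, 49.8 and 29.1 CPM against 5.17 to 7.12 CPM (2.36, SE 0.39, adjusted p = 0.0312). Ptx3, a soluble pattern recognition molecule, stood at 152, 421 and 267 CPM against 54.6 to 60.4 CPM (2.29, SE 0.35, adjusted p = 0.0267). In both genes isotonic library 2 was the highest and library 1 the lowest, and no library overlapped. None of 24 tested NF-kB feedback genes and targets passed the edgeR threshold, with 6 at an unadjusted p under 0.05 and a median of −0.07. Of the 24, 3 lay above and 6 below every conditioned medium library, against 14.8% and 15.9% of all genes. DESeq2 called 3 of the 24 higher, against its 7.13% of all genes. Of 17 inflammasome genes 1 was higher and 1 lower, against 1.96% and 1.21% of all genes. Casp4 (1.01), the sensor of intracellular lipopolysaccharide also known as caspase-11, was higher, and Il1b was lower.

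Surface receptors split as well. Of 30 pattern recognition and scavenger receptor genes 3 were higher, against 1.96% of all genes: Olr1 (1.49), a receptor for oxidized lipoprotein, Clec4e (0.66), the mycobacterial glycolipid receptor Mincle, and Tlr4 (0.69), the lipopolysaccharide receptor. Olr1 alone of these kept its call with scaling by total counts. Lower were 2, against 1.21% of all genes: Fcgr1 (−1.24) and C5ar1 (−0.72), the receptor of complement C5a. Marco, a scavenger receptor, stood at 417, 735 and 612 CPM against 895 to 1009 CPM. Its isotonic libraries were all lower, yet the difference did not pass in edgeR (−0.67, SE 0.21, adjusted p = 0.12). It passed in DESeq2 (adjusted p = 0.0368) and, in edgeR, with scaling by total counts (−0.89, adjusted p = 0.0431). Of 16 markers of alternative activation 2 were higher and 0 lower, against 1.96% and 1.21% of all genes. The 2 were Clec7a (1.04), the beta-glucan receptor Dectin-1, and Mrc1 (0.72), the mannose receptor CD206. Mrc1 stood at 173, 200 and 173 CPM against 107 to 116 CPM, and its adjusted p was 0.051 with scaling by total counts. Of 22 antigen presentation genes 1 was higher and 1 lower, against 1.96% and 1.21% of all genes. Tapbp (0.52), the peptide-loading chaperone tapasin, was higher and March1 (−1.05), a ligase that removes MHC class II from the surface, lower.

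The lysosome and its proton pump, which acidifies it, made up a further list with rises and no falls. Of 33 tested, 5 were higher and 0 lower, against 1.96% and 1.21% of all genes, 20 were above every conditioned medium library, against 14.8%, and the median was 0.37. Atp6v0d2, a subunit of the vacuolar proton pump, stood at 307, 287 and 311 CPM against 122 to 126 CPM (1.29, SE 0.09, adjusted p = 0.00421). The others were Atp6v1c1 (0.75), another pump subunit, Gla (0.70), the alpha-galactosidase, Tfec (0.69), a transcription factor related to TFEB, and Sqstm1 (0.63), the autophagy receptor p62. Sqstm1 was abundant, at 4893, 5265 and 5444 CPM against 3333 to 3431 CPM. With scaling by total counts 3 were higher, without the calls of Gla and Sqstm1. Without isotonic library 1 the count was 22 higher and 2 lower, against 23.2% and 21.6% of all genes in that fit.

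**Figure D3:**
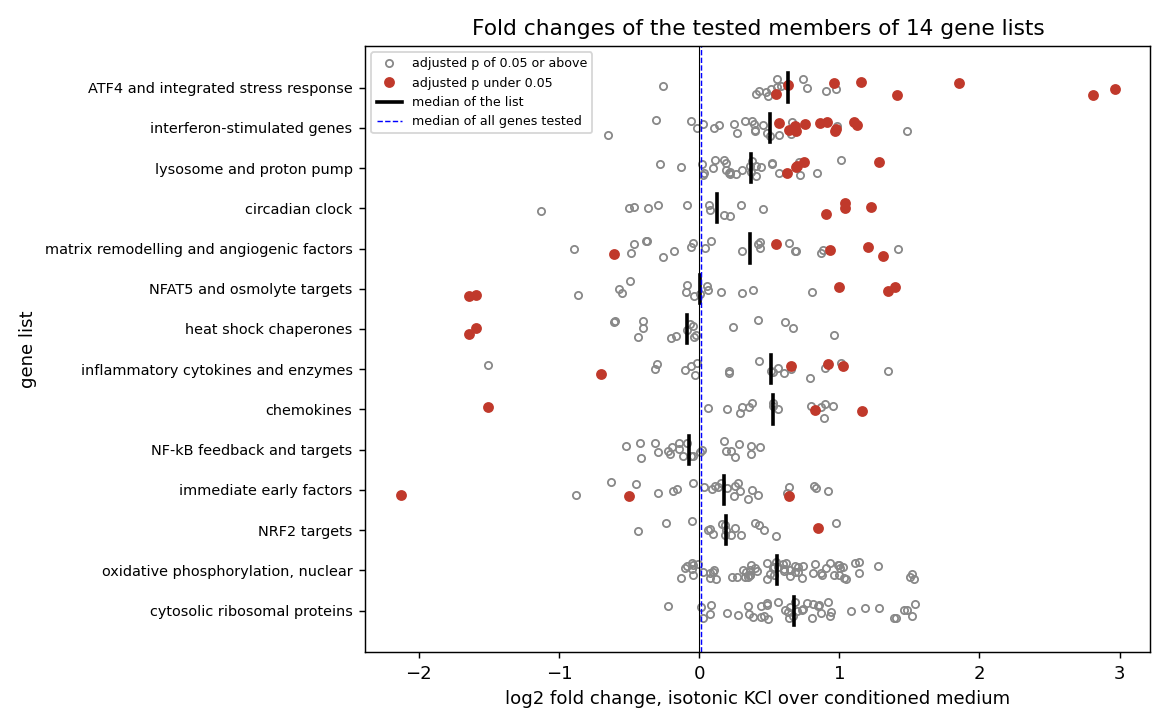
Log2 fold change (x axis) of each tested gene in 14 lists (y axis), filled where the adjusted p was under 0.05, with a bar at each list's median and a dashed line at the median of all genes. The ATF4 list has 8 filled points, all to the right, while the osmolyte list has 3 to the right and 2 to the left. With scaling by total counts the median of all genes lies at −0.18 and the circadian median at −0.07.

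Extracellular matrix and clock genes also held calls. Plau, the urokinase protease, stood at 84.5, 92.0 and 93.1 CPM against 33.2 to 39.5 CPM (1.31, SE 0.11, adjusted p = 0.00599). Serpinb2 (1.20), a urokinase inhibitor, and the metalloproteinase genes Mmp13 (0.93) and Mmp12 (0.55) were higher and Mmp9 (−0.61), a gelatinase, lower among 26 tested. With Plau, 4 of the 26 were higher and 1 lower, against 1.96% and 1.21% of all genes. Vegfa, the vascular growth factor, had a fold change of 0.08 (adjusted p = 0.76). Of 16 circadian genes 4 were higher and 0 lower, against 1.96% and 1.21% of all genes. The 4 were Nr1d2 (1.23), the repressor REV-ERB beta, the opposing activator Rora (0.90), and the repressors Bhlhe41 (1.04) and Bhlhe40 (1.04). Nr1d2 stood at 66.8, 79.9 and 71.7 CPM against 28.5 to 32.8 CPM. Of the 16, 6 were above and 2 below every conditioned medium library, against 14.8% and 15.9% of all genes. The list's median was 0.13, and −0.07 with scaling by total counts, where Rora was not called (adjusted p = 0.059 in edgeR). Zinc genes rose in 2 of 11 cases, against 1.96% of all genes: the exporter Slc30a1 (1.05) and the metallothionein Mt2 (1.31).

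Among genes that fell, Fos, a subunit of the AP-1 factor, stood at 14.5, 19.5 and 15.4 CPM against 70.7, 78.6 and 68.0 CPM (log2 fold change −2.13, SE 0.15, adjusted p = 0.00421). Of 28 immediate early genes 2 were lower and 1 higher, against 1.21% and 1.96% of all genes. Fos and Fosl2 (−0.50) were lower and Atf3 (0.64), a stress-induced repressor, was higher. P2ry6, the receptor for extracellular UDP that prompts phagocytosis, fell furthest of the genes named, from 18.2 to 20.6 CPM in conditioned medium to 5.20, 3.10 and 3.005 CPM (−2.31, SE 0.23, adjusted p = 0.00769). Tgfbi, a secreted matrix protein, stood at 42.2, 29.4 and 36.3 CPM against 148 to 156 CPM (−2.07, SE 0.15, adjusted p = 0.00421). Fgr (−1.61), a Src family kinase of myeloid cells, Abi3 (−1.55), an adaptor of actin remodelling, Emilin1 (−1.52), a matrix glycoprotein, and Sema4c (−1.51), a semaphorin, completed the lowest with Cx3cl1. Of the remaining highest genes, Bex1 had a fold change of 2.10 and Tent5c, a poly(A) polymerase, of 2.03.

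No call was made among the genes of respiration and the ribosome, where the isotonic libraries disagreed. The median log2 fold change was 0.56 over 68 nuclear genes of oxidative phosphorylation and 0.68 over 44 cytosolic ribosomal protein genes, and in edgeR none of either list passed, with 24 of each at an unadjusted p under 0.05. DESeq2 called 6 and 7 of them higher, against 7.13% of all genes. Rps14, a short ribosomal transcript, stood at 625, 3299 and 1700 CPM in isotonic libraries 1 to 3 and at 641 to 782 CPM in conditioned medium, so library 1 fell below the reference range and libraries 2 and 3 far above it. Without library 1, 54 of the 68 and 38 of the 44 were called higher, against 23.2% of all genes in that fit. With the length slope as a covariate 25 and 26 were called higher, against 16.9% of all genes (12.6% were lower), and the medians were 0.12 and 0.20.

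Isotonic KCl was then set directly against KCl added with no isotonic adjustment, in C57BL/6J cells with the same conditioned medium, 40 mM and 6 hours (3 libraries each). The osmotic load and the strain both differ here. Other parts of the medium may differ too, since the labels do not state how it was kept isotonic. This comparison shares its isotonic libraries with the first. Of 12876 genes, 1218 (9.46%) passed the same edgeR test, 752 (5.84%) higher and 466 (3.62%) lower with isotonic KCl. Leaving out each library in turn gave 80 calls (without KCl library 1), 132 (without isotonic library 3), 233 and 368 (without KCl libraries 2 and 3), and 829 and 1437 (without isotonic libraries 2 and 1).

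Of 19 tested osmolyte genes 7 were lower with isotonic KCl than with KCl, against 3.62% of all genes, and 1 was higher, against 5.84%. Slc5a3 stood at 22.8 to 28.3 CPM with isotonic KCl and at 128, 133 and 98.4 CPM with KCl (log2 fold change −2.29, SE 0.18, adjusted p = 0.00200). Slc6a12 (−1.06) and Slc38a2 (−0.69) were lower too, and both calls were lost without any 1 KCl library or isotonic library 3, that of Slc38a2 also without isotonic library 2. The median of the 19 was −0.58, beside −0.01 over all genes. Akr1b3 (−1.995), named after its value was seen, was among the 7, as were Hspa1b (−2.78) and Hspa1a (−1.97), the last not called without any 1 KCl library or isotonic library 3. Hspa1b stood at 2.57 to 3.73 CPM with isotonic KCl, 16.99 to 26.6 CPM with KCl and 8.16 to 10.5 CPM in conditioned medium alone. Kcnj2 was lower with isotonic KCl than with KCl (−1.01, SE 0.14, adjusted p = 0.00847), at 289 to 309 CPM in the latter, a call lost without KCl library 1 or isotonic library 3. Glul was lower as well (−2.13, SE 0.15, adjusted p = 0.00170), with 402 to 492 CPM under KCl.

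The stress genes Chac1 and Trib3 differed the other way. Chac1 stood at 0.80, 1.27 and 1.62 CPM with KCl and 11.6 to 15.1 CPM with isotonic KCl (3.43, SE 0.29, adjusted p = 0.00247), the largest fold change the naming rule gave. Trib3 stood at 4.39 to 4.92 CPM with KCl (2.45, SE 0.24, adjusted p = 0.00358). Of the 22 ATF4 genes 4 were higher, against 5.84% of all genes, and 0 lower, against 3.62%, with a median of 0.44. Atf4 itself was 739 to 1174 CPM with KCl and did not differ past the threshold (−0.36, SE 0.30, adjusted p = 0.52). Knockout cells, which carry Lyz2-Cre and were also given isotonic KCl, had 8.91 to 10.9 CPM of Chac1 and 16.6 to 21.4 CPM of Trib3, and the 2 libraries with NaCl had 0.415 and 0.913 CPM of Chac1. Values above 2.01 CPM for Chac1 were thus seen in isotonic KCl libraries only, among the 17, and these are also the only libraries of floxed strains.

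Of 23 tested inflammatory genes 14 were higher with isotonic KCl than with KCl, against 5.84% of all genes, and 0 were lower, against 3.62%. Their median was 1.21. Il1b stood at 696, 655 and 703 CPM with KCl (1.74, SE 0.14, adjusted p = 0.00200), so its isotonic level lay between that value and conditioned medium alone, with no overlap on either side. Tnf (0.75) and Il6 (1.90) were higher, though neither call held without any 1 KCl library or isotonic library 3, nor that of Il6 without isotonic library 2. Marco showed a large difference, at 67.7, 87.5 and 57.9 CPM with KCl (3.001, SE 0.27, adjusted p = 0.00280). Further higher genes were Vnn3 (3.34), a pantetheinase, Cd300e (3.08), an activating myeloid receptor, and Slc13a3 (3.04), a dicarboxylate importer. The lowest were Scgb1a1 (−3.30), a secretoglobin, Tlcd2 (−2.42) and Xcr1 (−2.33), a receptor of cross-presenting dendritic cells whose call was lost without KCl library 1 or 2 or isotonic library 3. Of 19 NRF2 targets 6 were lower, against 3.62% of all genes, and 0 higher, against 5.84%. Among the 6 was Gclc (−2.04), named after its value was seen, the catalytic subunit for glutathione synthesis.

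Several genes lay on opposite sides of the 2 references. C5ar1 was below conditioned medium alone (−0.72) and above KCl (1.504), and March1 (−1.05 and 2.22) and Fgr (−1.61 and 2.63) did the same. Slc30a1 was above conditioned medium (1.05) and below KCl (−1.01), as was Nr1d2 (1.23 and −0.85). Glul was below both. Gbp3 was above both (1.12 and 1.18), while Rsad2 was above conditioned medium (0.86) and below KCl (−0.67), so interferon-stimulated genes did not share 1 order across the 3 media. Against KCl, the calls of Rsad2 (any 1 KCl library or isotonic library 2 or 3), Nr1d2 (KCl library 1 or 2 or isotonic library 3), Slc30a1 (KCl library 1 or isotonic library 3), and Gbp3 and Fgr (KCl library 1) were lost without the libraries named.

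**Figure D4:**
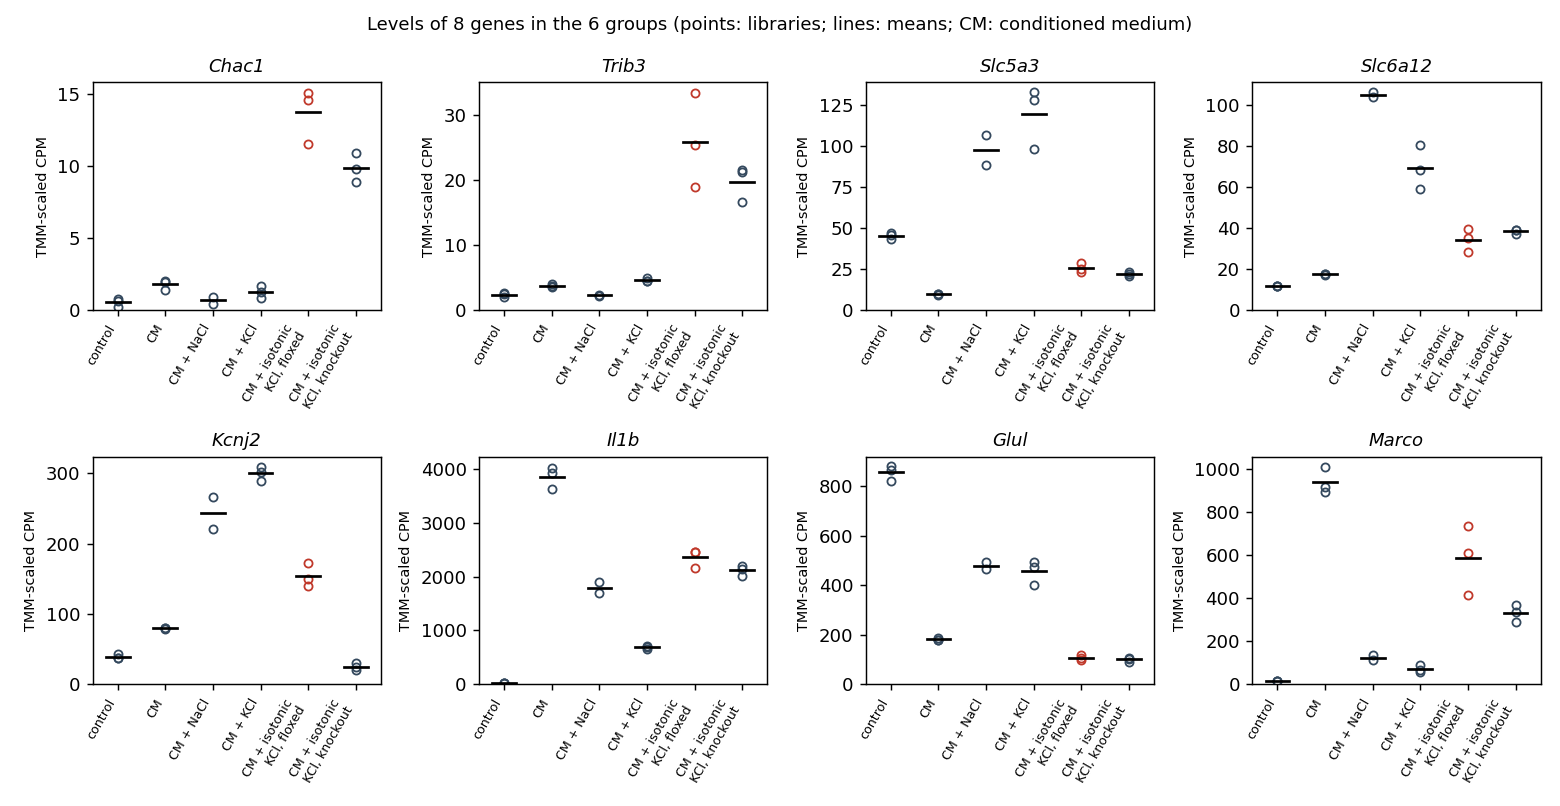
TMM-scaled CPM (y axes, from 0) of 8 genes in the 6 groups (x axes, CM is conditioned medium), with 1 point per library and lines at the means. Chac1 and Trib3 are high only in both isotonic groups, Slc5a3 is at 22.8 to 28.3 CPM in floxed isotonic cells, between conditioned medium (9.19 to 9.85 CPM) and KCl (98.4 to 133 CPM), and Glul is lowest in both isotonic groups.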

How the data were processed

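RNA of 17 libraries was deposited by the authors as raw counts per Ensembl mouse gene; 6 libraries entered the main comparison and 3 more the second. Aligner, counter, build and strand setting: not given in the sources used here. The submitters' processing notes list DESeq2 1.30.1 without saying what it did. Without strand, overlapping and antisense genes cannot be told apart. Groups came from the strain and treatment labels. Symbols and transcript lengths came from GENCODE M21 (GRCm38), and identifiers without a symbol (260) held 0.0121% of counts. Where a listed symbol had several identifiers, the one with most counts was used.

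Counts of the libraries compared were tested with edgeR 4.0.16 (R 4.3.3, TMM, default low-count filter, robust quasi-likelihood, strain not separable), and adjusted over all genes tested at 0.05. Fold changes are log2, SE is their standard error, and a gene at 0 counts is below 3 counts. Calls were also made with DESeq2 1.42.0, limma 3.58.1 and the alternatives of the closing section. The scripts were tested on simulated data. Members, the 48 gene lists and tests were chosen with earlier results of these data known. The text names Kcnj2, Slc5a3, Il1b, Tnf, Il6, Nos2, Arg1, Mrc1, Vegfa and Marco; the 8 highest and 8 lowest called fold changes (4 each in the second comparison) whose mean reached 10 CPM in either group without overlap, leaving out predicted genes; and called or most abundant members of lists. Other members are named as contrasts after their values were seen: Ddit4, Akr1b3, Rps14, Gclc and further called members of lists.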

Additional observations from a re-analysis of the deposited data

How the results depend on the processing

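The 411 calls against conditioned medium became 1585 with DESeq2, 2245 with all 17 libraries in the fit and 3820 with the length slope as a covariate. They were 339 to 555 with RLE factors, total counts, no or a stricter low-count filter, and limma voom with a weight per group. Leaving out each library in turn gave 0 to 5939. The 1218 calls against KCl became 2108, 4076 and 4775 under the first 3 of these, and 80 to 1437 with each library left out. The fit of all 17 libraries assumes 1 spread per gene in groups whose spread differed. The cause of these changes was not tested.

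Replicate numbers did not pair the libraries: residual correlations of same-numbered libraries were −0.25, 0.05 and −0.13 in the first comparison and −0.23, 0.52 and −0.16 in the second, and not every library correlated best with its own number. With the replicate block edgeR made 0 calls in the first (2332 at an unadjusted p under 0.05) and 499 in the second, and with block and length slope 3101 and 5889.

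Of the 92 called genes named, 92 kept their call with DESeq2, the stricter filter, all libraries, the length slope or without isotonic library 1, and 88 to 90 with RLE factors, voom, no filter or without isotonic library 2. Among uncalled genes, Akr1b3 changed sign with total counts (−0.146), the length slope (−0.071), and the block with length slope (−0.083), and ran from −0.047 to 0.136 with each library left out. Vegfa changed sign with total counts (−0.102) and ran from −0.132 to 0.174 with each library left out, and Nos2 from −0.087 to 1.018. With 3 libraries a group, a gene that missed the threshold is not shown to be unchanged.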

Other observations

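Genes outside the naming rule, picked here after their values were seen, also differed between isotonic KCl and conditioned medium in edgeR, without overlap between the groups. Sgk1, a kinase regulated by glucocorticoids and cell volume, stood at 249, 328 and 291 CPM against 101 to 103 CPM (log2 fold change 1.51, adjusted p = 0.00599). Dio2, which activates thyroid hormone, stood at 55.4, 61.8 and 57.5 CPM against 19.2 to 20.1 CPM (1.57, adjusted p = 0.00421). Il15, a growth factor of NK cells, stood at 29.8, 41.7 and 33.5 CPM against 10.5 to 13.6 CPM (1.52, adjusted p = 0.0136), and Irf1, an interferon-regulatory transcription factor, at 234, 241 and 248 CPM against 111 to 125 CPM (1.02, adjusted p = 0.00714). The chemokine receptor Cxcr4 (1.65), the G protein regulator Rgs1 (1.78) and Cd83 (1.41), a marker of mature antigen-presenting cells, were higher too.

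Lower genes of this kind included Dok2, an adaptor that restrains kinase signalling, at 37.1, 39.7 and 42.5 CPM against 87.9 to 94.6 CPM (−1.19, adjusted p = 0.00599), Ptger4, a prostaglandin E2 receptor (−1.01), Gpr65, an acid-sensing receptor (−1.23), and Tnfrsf11a, the receptor RANK (−1.13). Slc13a3, a dicarboxylate importer, was at 50.6, 38.0 and 43.0 CPM with isotonic KCl, 118 to 127 CPM in conditioned medium alone (−1.48, adjusted p = 0.00599) and 3.30 to 6.31 CPM with KCl. Each of these 12 calls against conditioned medium was lost without any 1 conditioned medium library or isotonic library 3.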
